A study of Mus musculus with 77 samples.

Results

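Replication-dependent histone genes encode the linker histone H1 and the core histones H2A, H2B, H3 and H4, the proteins on which DNA is wound. The genes described here are all those with symbols starting Hist1h, Hist2h, Hist3h or Hist4h whose values varied between libraries in the deposited table of GRKO MR cells with aldosterone. That gave 68 genes of the 18084 that varied there, among 24940 listed; 1 further histone gene, Hist1h2aa, had the same value in every library. By class, 6 encode H1, 18 H2A, 19 H2B, 12 H3 and 13 H4. In the coordinates of the files (mm10), 53 lie in the 2 blocks of the Hist1 cluster on chromosome 13 and Hist1h2al lies outside them (51200084 to 51203066), 10 in the Hist2 cluster on chromosome 3, 3 in the Hist3 cluster on chromosome 11, and Hist4h4 lies alone on chromosome 6. Hist1h2al and Hist3h2bb-ps are listed with non-coding transcripts.

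The study followed RNA in mouse cells treated with aldosterone, the main mineralocorticoid, or corticosterone, the main glucocorticoid of rodents. RNA libraries came from 63 samples in 18 groups, and 62 of them have a column in the tables. Library totals ran from 22.68 to 61.12 M reads, and the read counts of single genes are unknown, since the deposited values are logs. The cell lines are labelled adenocarcinoma cells, and labels of the chromatin samples name C127l. The line GRKO_MR-2B12, labelled as knockout of the glucocorticoid receptor (GR) and carrying the mineralocorticoid receptor (MR), had 3 libraries each of aldosterone (10 nM), corticosterone (100 nM) and vehicle. The parental line Parental_MR-1G12, carrying MR, had 2 libraries of aldosterone, 3 samples of corticosterone of which 2 were used, and 3 of vehicle. Parental cells without added MR had 3 libraries each of aldosterone and vehicle. Cells labelled GRKO with a receptor called MR580C had 3 libraries each of aldosterone, corticosterone and vehicle, and parental MR580C cells had 3 each of aldosterone, corticosterone and vehicle. Aldosterone libraries 2 and 3 of the GRKO MR580C cells held equal values for every gene, to within 1e-06, a difference below sampling noise, and were counted as 1 library, so 2 remain. Colon organoids labelled GRKO had 5 libraries of aldosterone and 5 of vehicle, and WT organoids 6 and 6. All were collected at 2 h, after 24 h in charcoal-stripped serum. The MR lines are each named as 1 line (2B12 and 1G12), and the labels do not say that replicates are separate cultures, so p-values measure only the spread between these libraries.

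Transcripts of replication-dependent histone genes are the only protein-coding mRNAs of animal cells that end in a stem-loop and not in a poly(A) tail. They are made in S phase, when DNA is copied, and are destroyed when copying ends, with the stem-loop binding protein (Slbp) acting in their processing, translation and decay. A total RNA library, which does not select for poly(A), keeps them. The genes here were chosen by symbol, and whether each listed transcript ends this way was not tested. Hist1h2al (2982 bases), Hist1h2be (2502 bases) and Hist2h2be (2664 bases) are listed as longer than 1 kb. The same libraries hold other RNAs without a poly(A) tail, among them Rmrp and Rpph1, the RNA parts of related RNA-cutting enzymes, and Rn45s, the precursor of ribosomal RNA. In whole cultures, fewer cells in S phase and less histone RNA per cell cannot be told apart.

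The start regions of these genes show which class-specific elements they carry, and they are shown for the H4 genes that differed most, for an H2B, an H2A and an H1 gene. RefSeq promoters (GRCm38.p6) were matched for 61 of the 68 genes; for 6 genes the 150 bases before the RefSeq start are given 5′ to 3′ on the strand of the gene. Capitals mark every match, on either strand, to any of 5 motifs. TATAAA is a core promoter element near the start. The pentamer CCAAT is a common proximal element. The octamer of H2B genes is ATTTGCAT, the H1 box is AAACACA, and part of the H4 site bound by Hinfp is GGTCCG. A match describes the letters and does not show binding.
Hist4h4 (chr6:136804432-136804581, minus strand): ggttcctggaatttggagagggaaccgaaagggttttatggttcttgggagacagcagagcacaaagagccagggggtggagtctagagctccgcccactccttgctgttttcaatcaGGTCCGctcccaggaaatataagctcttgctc
Hist1h4j (chr13:21734884-21735033, plus strand): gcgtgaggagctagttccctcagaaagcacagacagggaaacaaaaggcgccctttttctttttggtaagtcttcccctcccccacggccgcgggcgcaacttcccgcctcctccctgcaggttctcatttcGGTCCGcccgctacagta
Hist1h4k (chr13:21750554-21750703, minus strand): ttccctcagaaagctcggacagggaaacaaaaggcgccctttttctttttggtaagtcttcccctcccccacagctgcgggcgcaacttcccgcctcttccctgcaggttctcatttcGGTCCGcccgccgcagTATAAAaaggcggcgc
Hist1h2bm (chr13:21721894-21722043, plus strand): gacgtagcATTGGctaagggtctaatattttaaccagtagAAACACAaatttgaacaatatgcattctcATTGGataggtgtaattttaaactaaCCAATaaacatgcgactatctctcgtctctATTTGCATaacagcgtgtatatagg
Hist1h2ab (chr13:23750938-23751087, plus strand): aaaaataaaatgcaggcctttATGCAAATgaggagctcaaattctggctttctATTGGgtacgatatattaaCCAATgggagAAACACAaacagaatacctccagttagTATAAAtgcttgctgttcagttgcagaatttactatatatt
Hist1h1d (chr13:23554882-23555031, plus strand): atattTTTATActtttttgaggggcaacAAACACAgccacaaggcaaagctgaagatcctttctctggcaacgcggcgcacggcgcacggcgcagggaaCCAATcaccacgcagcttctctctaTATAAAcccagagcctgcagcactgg

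Over the 250 bases before the start, GGTCCG stood in 9 of 12 H4 promoters with a sequence, in 11 of the 61 histone promoters and in 6.72% of all 32851 RefSeq promoters. The octamer ATTTGCAT stood in 7 of 16 H2B and 6 of 17 H2A promoters, in no promoter of the other classes, and in 1.6% of all. AAACACA stood in 5 of 6 H1, 2 of 16 H2B and 1 of 17 H2A promoters, in no H3 or H4 promoter, and in 6.25% of all. CCAAT stood in each of the H1, H2A and H2B promoters with a sequence, in 8 of 10 H3 and 3 of 12 H4 promoters, and in 33.8% of all. TATAAA stood in 28 of the 61 and in 12.4% of all. The upstream windows of Hist1h4j and Hist1h4k, neighbours in the cluster on opposite strands, were identical at 226 of 236 aligned bases.

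Sgk1 and Tsc22d3, corticosteroid-induced genes, rose under aldosterone in every line except parental cells without added MR, where neither passed the test. Nr3c1, the gene of GR, stood at 12.94 to 13.01 in aldosterone and 12.98 to 13.02 in vehicle libraries of GRKO MR cells on the deposited log2 scale, and at 12.74 and 12.76 with aldosterone and 12.84 to 12.90 with vehicle in parental MR cells, so its RNA does not mark the knockout in these cells. Which part of the gene was altered is not stated by the labels, so this level does not check them. In organoids Nr3c1 stood at 8.82 to 9.24 in those labelled GRKO and 10.50 to 11.42 in WT, in tables scaled separately. Of 5 epithelial markers, none passed the filter on low values in GRKO MR cells, where Epcam and Krt18 were listed at 0 in vehicle libraries, and all 5 were tested in both organoid lines. Mki67, a marker of dividing cells, stood at 14.88 to 14.99 in the vehicle libraries of GRKO MR cells. Both libraries of parental MR cells that are numbered 3, in either hormone table, stood apart by Rn45s, with 20.48 to 21.31 against 18.19 to 18.59 in those numbered 1 or 2.

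Histone RNAs of all 5 classes fell in GRKO MR cells after 2 h of aldosterone. Of the 63 histone genes that passed the filter, 41 were lowered and 0 raised (limma, Benjamini-Hochberg adjusted p under 0.05 over all 12486 genes tested), against 0.561% of all genes lowered and 0.432% raised. The median difference over the 63 was −0.16 on the deposited log2 scale, aldosterone minus vehicle, against 0 over all genes, with a range of −0.40 to 0.0059, and 60 of the 63 were negative. In 47 of the 63, all 3 aldosterone libraries lay below all 3 vehicle libraries, which held for 7.97% of all genes; the opposite held for 0 of the 63 and 7.5% of all genes. The scale pulls differences of weakly expressed genes towards 0. In the authors' deposited table the median log2 fold change of the 68 genes was −0.39, with 63 negative, 30 lowered and 0 raised, against 0.426% of all genes lowered and 0.359% raised.

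**Figure D1:**
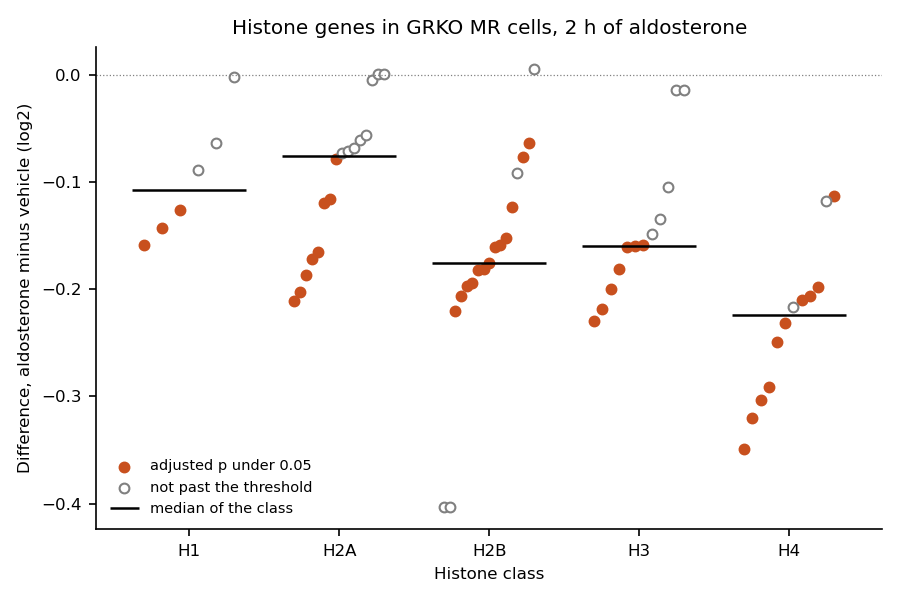
Difference between aldosterone and vehicle in GRKO MR cells, in log2 units on the vertical axis, for the 63 histone genes tested, by class; filled points passed the adjusted threshold and bars are class medians. All but 3 points lie below 0, the H4 median is lowest on this scale at −0.22, and 2 open H2B points at −0.40 belong to 1 shared locus.

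Of the H4 genes, which encode the least varied of the core histones, 10 of 12 tested were lowered, with a class median of −0.22. That was the lowest class median on the deposited log2 scale, but not in the authors' deposited table, where over all listed histone genes the median log2 fold change was −0.53 for H2A and −0.45 for H4. That table called 3 of 13 H4 genes as lowered, Hist4h4, Hist1h4f and Hist1h4i. Hist1h4j, Hist1h4k, Hist1h4h, Hist1h4b and Hist1h4d were not among them. Hist4h4 stood at 12.28, 12.14 and 12.35 in the aldosterone libraries, against 12.61, 12.49 and 12.71 in vehicle libraries. No aldosterone library reached the lowest vehicle library, and the difference was −0.35 ± 0.047 (SE, n = 3 each, limma adjusted p = 0.000621). Hist1h4j had 11.06, 10.93 and 11.18 with aldosterone and 11.46, 11.26 and 11.42 with vehicle, again without overlap (−0.32 ± 0.051, limma adjusted p = 0.00289). Hist1h4k, the neighbour with the near-identical start region, had 11.69, 11.55 and 11.76 with aldosterone and 12.07, 11.80 and 12.04 with vehicle (−0.30 ± 0.055, limma adjusted p = 0.00826). In Hist1h4h the aldosterone libraries gave 10.95, 10.84 and 11.06 and the vehicle libraries 11.28, 11.10 and 11.34, a difference of −0.29 ± 0.050. Vehicle library 2 was the lowest vehicle library in each of these genes, and aldosterone library 2 the lowest of all. Hist1h4b had 11.21, 11.08 and 11.27 with aldosterone and 11.56, 11.29 and 11.45 with vehicle, and vehicle library 2 stood only just above aldosterone library 3 (−0.25 ± 0.051). Hist1h4f had 11.81, 11.79 and 11.91 with aldosterone and 12.07, 11.98 and 12.15 with vehicle, without overlap (−0.23 ± 0.036). Hist1h4d, the most abundant H4 gene per length at 15.18 (log2 per kb), had 13.62, 13.55 and 13.70 with aldosterone and 13.89, 13.73 and 13.88 with vehicle, and was lowered by −0.21 ± 0.039. The 2 H4 genes that did not pass were Hist1h4a (−0.12 ± 0.086) and Hist1h4c (−0.22 ± 0.077).

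H2B genes gave 13 of 17 lowered, with a median of −0.18. Hist1h2bm stood at 11.67, 11.66 and 11.79 with aldosterone, against 11.95, 11.84 and 11.98 with vehicle, groups that did not overlap (−0.22 ± 0.035, limma adjusted p = 0.00275). Hist2h2bb was the most abundant member of all 63 per length, at 15.79 (log2 per kb), and its difference was smaller. It stood at 14.68, 14.72 and 14.76 with aldosterone and 14.79, 14.82 and 14.83 with vehicle, without overlap, and did not pass (−0.09 ± 0.024, limma adjusted p = 0.114). The authors' deposited table called it lowered. The largest differences of any histone genes did not pass either. Hist1h2bq and Hist1h2br, 2 entries for a repeated locus whose values agree within 0.01, had 7.49 to 7.51 in the 3 aldosterone libraries and 8.69, 7.51 and 7.51 in vehicle libraries, so vehicle library 1 alone was high (−0.40 ± 0.193, limma adjusted p = 0.437).

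Among H2A genes 8 of 16 were lowered, with a median of −0.075. Hist1h2ab, with the octamer, H1 box and CCAAT matches shown above, stood at 9.90, 9.85 and 9.93 with aldosterone and 10.15, 10.05 and 10.11 with vehicle. It gave the lowest adjusted p of all histone genes (−0.21 ± 0.024, limma adjusted p = 9.16e-05). Hist3h2a, the H2A gene with the highest level, stood at 11.28, 11.22 and 11.28 with aldosterone and 11.45, 11.35 and 11.47 with vehicle (−0.16 ± 0.028). For H3, 7 of 12 genes were lowered and the median was −0.16. Hist2h3b had 10.29, 10.32 and 10.45 with aldosterone and 10.68, 10.47 and 10.59 with vehicle (−0.23 ± 0.042). Hist1h3f had 11.07, 11.04 and 11.17 with aldosterone and 11.38, 11.17 and 11.38 with vehicle, where vehicle library 2 lay just below aldosterone library 3 (−0.22 ± 0.044). The authors' deposited table called neither Hist2h3b nor Hist1h3f. Hist1h3b, the highest H3 gene per length, fell to 11.56, 11.56 and 11.63 with aldosterone, against 11.79, 11.72 and 11.78 with vehicle (−0.18 ± 0.024, limma adjusted p = 0.000556).

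Of the linker histone genes 3 of 6 were lowered, and the median was −0.11. Lowered were Hist1h1c (−0.16 ± 0.028), Hist1h1e (−0.14 ± 0.027) and Hist1h1d (−0.13 ± 0.027). Hist1h1b, the most abundant H1 gene, had 13.79, 13.80 and 13.80 with aldosterone and 13.89, 13.87 and 13.89 with vehicle. Its groups did not overlap and its spread was small, and with an adjusted p of 0.0573 (limma) it lay just outside the threshold (−0.09 ± 0.021). The authors' deposited table called it lowered. Hist1h1t, known as a testis form, stood near the filter limit at 3.40 to 3.41 in both groups.

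**Figure D2:**
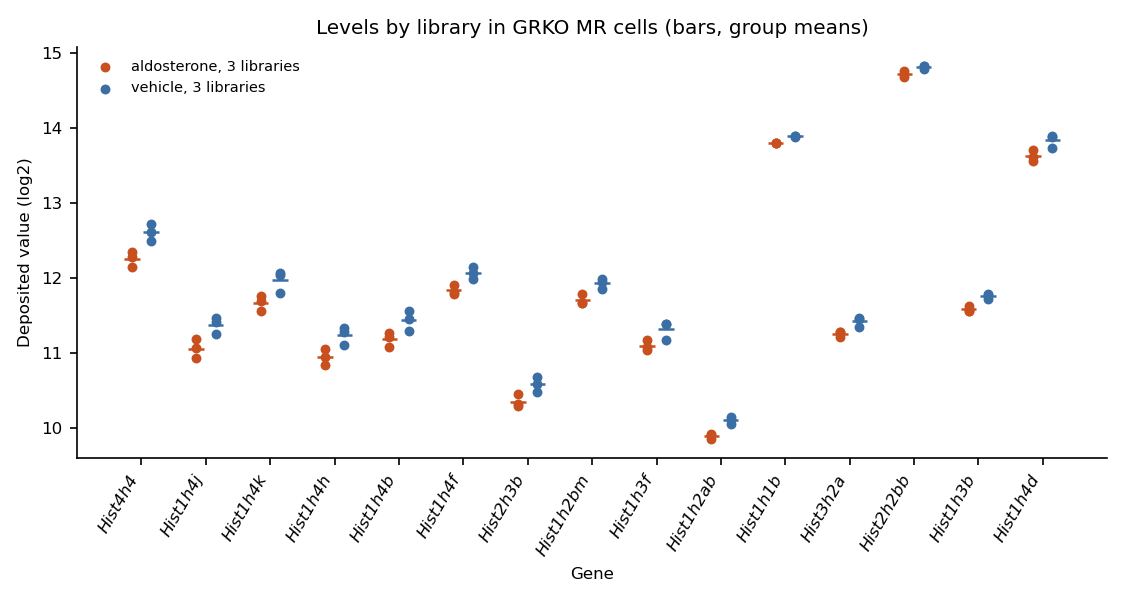
Deposited log2 level (vertical axis) in each of the 3 aldosterone and 3 vehicle libraries of GRKO MR cells, for the 10 histone genes with the largest called differences and for the most abundant gene of each class; bars are group means. In each gene the mean of the aldosterone libraries lies below that of the vehicle libraries, by 0.35 in Hist4h4 and by 0.09 in Hist2h2bb.

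Both chromosome 13 blocks took part: 13 of 20 tested genes of the block at 21715713 to 22043658 and 21 of 29 of the block at 23531044 to 23934156 were lowered, each with a median of −0.16. Hist1h2al, outside both blocks, was lowered as well (−0.20 ± 0.032). The Hist2 cluster on chromosome 3 gave 3 of 10, with a median of −0.014. Its 7 others include Hist2h2aa1, Hist2h2aa2, Hist2h3c1 and Hist2h3c2, which the files list at 2 copies each and which had means of 4.76 to 4.98. Hist1h4n on chromosome 13, also listed at 2 copies, had a mean of 10.50 and was lowered (−0.21 ± 0.043). The part of copies or of level was not tested. Split by level, 15 of 31 genes with a mean of up to 10.82 were lowered, with a median of −0.10, and 26 of 32 genes with a higher mean, with a median of −0.18.

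Genes that act on histone RNA and genes of S phase gave no calls beside them. Of 28 genes for the processing and decay of histone RNA, 0 passed in limma, with 15 negative and a median of −0.0023; Slbp stood at 10.95, 10.96 and 10.92 with aldosterone and 10.95, 10.93 and 10.96 with vehicle. Of 38 S phase genes 0 passed, 33 were negative and the median was −0.02. Of 11 tested replacement histone genes, 0 passed, 10 were negative and the median was −0.035. Their transcripts mostly carry poly(A) tails, but how each of them ends was not tested. Of 6 tested genes for RNAs without poly(A), Rmrp and Rn45s were lowered. Rmrp had 15.83, 15.40 and 15.83 with aldosterone and 16.01, 16.11 and 16.37 with vehicle (−0.47 ± 0.091, limma adjusted p = 0.0122). Rn45s had 17.68, 17.70 and 17.74 with aldosterone and 18.32, 17.79 and 18.24 with vehicle (−0.41 ± 0.084, limma adjusted p = 0.0202). Rpph1 overlapped between the groups, with 17.18, 16.70 and 17.14 with aldosterone and 17.17, 17.30 and 17.70 with vehicle, and did not pass (−0.38 ± 0.110). The part of these RNAs in the fall of the histone genes was not tested.

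Histone genes moved together from library to library. Averaged over the 63 genes, the aldosterone libraries deviated from each gene's mean over the table by −0.08, −0.12 and −0.03, against 0.14, 0.0035 and 0.09 in vehicle libraries, and aldosterone library 3 and vehicle library 2 were nearest to each other across the groups. The count of 41 became 22 without vehicle library 1, 24 without vehicle library 3, 19 without aldosterone library 1 and 24 without aldosterone library 2. It became 1 (Hist1h1b, named after its value was seen) when limma took 1 spread prior for all levels of expression. The shares of all genes called in these refits are not given.

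With corticosterone, the same cells gave no call. Of 65 tested histone genes, 0 were raised and 0 lowered in limma, 4 had an unadjusted p under 0.05, and the authors' deposited table called 0 (0.299% raised and 0.133% lowered among all), while 0.232% of all genes were raised and 0.016% lowered. The median difference was −0.05 and 55 were negative. The 12 tested H4 genes were all negative, with a median of −0.16. Hist1h4j had 11.53, 11.05 and 11.22 with corticosterone and 11.58, 11.38 and 11.54 with vehicle (−0.23 ± 0.092, limma adjusted p = 0.495). Hist4h4 had 12.71, 12.38 and 12.65 with corticosterone and 12.74, 12.63 and 12.84 with vehicle, so that 2 hormone libraries lay inside the vehicle range. No histone gene had all corticosterone libraries below or above all vehicle libraries, which held for 6.38% (below) and 7.21% (above) of all genes. Hist2h2bb (0.03 ± 0.036) and Hist1h1b (0.0016 ± 0.030), the most abundant H2B and H1 genes, lay on the other side of 0. Rmrp (0.0026 ± 0.070) and Rn45s (−0.02 ± 0.096) did not pass, and of the RNAs without poly(A) 1 rose, Rprl3. The vehicle libraries are those of the aldosterone comparison, so the results of both hormones are not independent. Without corticosterone library 1, Hist1h4j was lowered. A p that misses the threshold does not show that values did not differ.

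**Figure D3:**
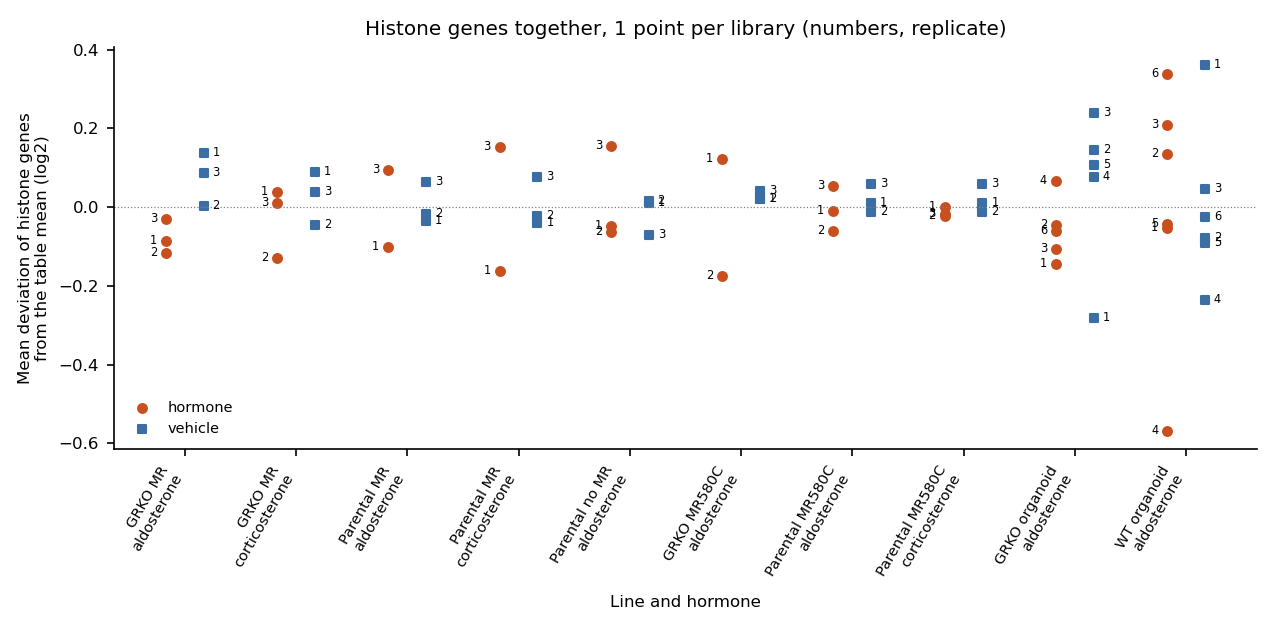
Mean deviation of the tested histone genes from the table mean, in log2 units on the vertical axis, for each hormone library (circles) and vehicle library (squares) of the 10 comparisons; numbers are replicate numbers. In GRKO MR cells the aldosterone libraries lie at −0.12 to −0.03 and the vehicle libraries at 0.0035 to 0.14, and the groups overlap in the other comparisons.

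In parental MR cells no histone gene passed with either hormone when samples were taken as unpaired. Some passed with the replicate number as a block, and the counts are given below. With aldosterone, 0 of 64 passed in limma, 2 had an unadjusted p under 0.05, the median was −0.0015, and the authors' deposited table called 1, Hist1h3c, as lowered; 0.625% of all genes were raised and 0.0721% lowered (0.595% and 0.105% in the authors' deposited table). With corticosterone, 0 of 65 passed, 2 had an unadjusted p under 0.05, the median was −0.0095, the authors' deposited table called 0 (1.66% raised and 0.906% lowered among all), and 2.08% of all genes were raised and 1.04% lowered. The 2 hormone libraries of each comparison, numbered 1 and 3, lay far apart. Hist1h4j had 11.10 and 11.62 with aldosterone, against 11.36, 11.35 and 11.57 with vehicle. With corticosterone it had 10.79 and 11.62, and 11.27, 11.26 and 11.52 with vehicle. In both hormones library 1 lay below and library 3 above all vehicle libraries. All hormone libraries lay below all vehicle libraries in 2 histone genes with either hormone, and above them in 0 with aldosterone and 1 with corticosterone; over all genes this held for 10.6% (below) and 10% (above) with aldosterone and 13.1% and 12.7% with corticosterone. Averaged over the histone genes, the corticosterone libraries deviated by −0.16 and 0.15, and the vehicle libraries by −0.04, −0.02 and 0.08.

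Leaving out both libraries numbered 3 left 1 hormone library, assumed to vary like the vehicle libraries, and 2 vehicle libraries. Then the median difference was −0.06 over 64 histone genes with aldosterone and −0.12 over 65 with corticosterone. Over fits that left out 1 library of either group, the median ran from −0.14 to 0.16 with corticosterone and from −0.08 to 0.10 with aldosterone. The part of Rn45s, which sets the libraries numbered 3 apart, was not tested.

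Parental cells without added MR had Nr3c2, the gene of MR, at 4.68 to 4.69, and no histone gene passed with aldosterone. Of 66 tested, 0 passed in limma, 3 had an unadjusted p under 0.05, the median was 0.02 and 22 were negative; 0 genes (0%) were raised and 0.00767% lowered among all. All aldosterone libraries lay below all vehicle libraries in 1 histone gene and above them in 5, and in 6.04% and 5.58% of all genes. The authors' deposited table called 1, the non-coding Hist1h2al, as lowered, against 0.0219% of all genes raised and 0.0767% lowered. Hist4h4 stood at 13.69, 13.67 and 14.03 with aldosterone and 13.76, 13.72 and 13.64 with vehicle. Library 3 of aldosterone was highest there, as in the mean over all histone genes, which deviated by −0.05, −0.06 and 0.16 with aldosterone and by 0.01, 0.02 and −0.07 with vehicle. That library was also highest in Rn45s (19.71, against 18.66 to 19.00 in the others) and Rmrp (17.93, against 17.29 to 17.72). Without it the median became −0.03 and Hist1h2al passed.

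Whether the answer to aldosterone differed between lines was tested gene by gene as the difference of responses. No histone gene passed with samples taken as unpaired. With the replicate number as a block, some passed for GRKO MR minus parental MR cells, and their count is given below. Deviations of same-numbered parental MR libraries of this hormone correlated at 0.699 to 0.75, and those of other pairs at −0.75 to 0.533. With 2 aldosterone libraries the deviations mirror each other, so these correlations are not independent and cannot decide on pairing. For GRKO MR minus parental MR cells, 0 of 62 passed in limma (24 with an unadjusted p under 0.05), with a median of −0.15 and 59 negative, against 0.0164% of all genes raised and 0.222% lowered. Hist4h4 gave −0.27 ± 0.107 (limma adjusted p = 0.517), and Hist1h2bm −0.24 ± 0.066 (limma adjusted p = 0.297). For GRKO MR cells minus parental cells without added MR, 0 of 63 passed (35 with an unadjusted p under 0.05), the median was −0.17 and 62 were negative, against 0.173% of all genes raised and 0.00824% lowered. The nearest to the threshold was Hist1h2ab at −0.27 ± 0.052 (limma adjusted p = 0.0814). Both share the GRKO MR libraries. Over fits that left out 1 library, the median of the first difference ran from −0.26 to −0.05. Fits without a hormone library of parental MR cells left 1 in that group, assumed to vary like the others. Without aldosterone library 3 of cells without added MR the second count became 4 (Hist1h2ab, Hist1h2bb, Hist1h2bm and Hist1h3i), all lowered. The shares of all genes called in the refits of the differences are not given. For corticosterone, 0 of 64 passed (3 with an unadjusted p under 0.05), with a median of −0.05, against 0.911% raised and 1.94% lowered among all genes. It became 2 raised without vehicle library 1 of parental MR cells (Hist1h2ao and Hist1h2ap, which share a locus), 1 lowered without corticosterone library 1 of parental MR cells (Hist1h2an) or library 3 of GRKO MR cells (Hist1h2bn), and 2 raised without both parental libraries numbered 3 (Hist1h2ai and Hist1h2an).

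An H1 gene and 1 H3 gene rose with aldosterone in cells labelled GRKO with MR580C. Hist1h1d had 12.80 and 12.94 with aldosterone and 12.55, 12.58 and 12.62 with vehicle (0.29 ± 0.046, SE, n = 2 and 3, limma adjusted p = 0.0333). Hist1h3g had 10.73 and 10.81 with aldosterone and 10.57, 10.55 and 10.52 with vehicle (0.22 ± 0.034, limma adjusted p = 0.029). The groups of both genes did not overlap. They were the 2 raised of 64 histone genes tested, with 0 lowered, against 0.217% of all genes raised and 0.0805% lowered. All aldosterone libraries lay above all vehicle libraries in 10 histone genes and below them in 7, and in 17.3% and 16.9% of all genes. Neither passed without any single vehicle library, where the counts were 0, 0 and 1 (Hist2h2ab). All 5 H1 genes tested were positive, with a median of 0.17, and all 12 H4 genes were negative, with a median of −0.18. In the authors' deposited table, 8 were raised, 4 of them for H1, and 3 lowered, against 1.84% and 1.3% of all genes. That table holds the equal aldosterone libraries as separate columns, so its p-values may treat 1 library as 2.

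The 2 distinct aldosterone libraries of these cells disagreed on the histone genes. Averaged over the 64, library 1 deviated by 0.12 and the library averaged from 2 and 3 by −0.18, with the vehicle libraries at 0.02, 0.02 and 0.04. Hist1h4j had 10.74 in library 1 and 10.09 in the other, against 10.81, 10.78 and 10.70 with vehicle. Rmrp followed, with 15.20 and 14.30 with aldosterone and 15.22, 15.31 and 15.02 with vehicle. A fit without either of them left 1 aldosterone library. Over fits that left out 1 library of any group, the median difference of the histone genes ran from −0.20 to 0.08. For corticosterone, the authors' deposited table of these cells lists only 404 genes, 402 of them past 0.05, so it was described and not tested. It holds 5 histone genes, of which Hist1h2ac, Hist2h2ac, Hist1h2an and Hist1h2bn were higher with corticosterone (log2 fold changes of 0.20, 0.21, 0.31 and 0.29 in the authors' deposited table) and Hist1h4k lower (−0.13).

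Parental MR580C cells gave 1 lowered gene with corticosterone and none with aldosterone. Hist1h3e had 12.24, 12.19 and 12.19 with corticosterone and 12.46, 12.32 and 12.30 with vehicle, without overlap (−0.15 ± 0.044, n = 3 each, limma adjusted p = 0.0377). It was the 1 of 68 tested, where 3.45% of all genes were raised and 3.47% lowered, so the share of histone genes called was below that of all genes. By unadjusted p under 0.05 there were 22, the median was −0.04 and 42 were negative. The authors' deposited table called 8 (1 raised, 7 lowered), against 4.23% and 4.56% of all genes. All corticosterone libraries lay below all vehicle libraries in 10 histone genes and above them in 4 (11.2% and 11% of all genes); for aldosterone these were 2 and 3 (6.21% and 6.54%). With aldosterone 0 of 68 passed in limma, 13 had an unadjusted p under 0.05, the median was −0.03 and the authors' deposited table called 0 (0.727% raised and 0.486% lowered among all), against 0.719% of all genes raised and 0.431% lowered. The count for corticosterone was 13 without vehicle library 2 and 0 without any 1 of the other vehicle or corticosterone libraries. That for aldosterone was 2 without aldosterone library 3 (Hist1h3d and Hist3h2a). The shares of all genes called in these refits are not given, so the counts cannot be set against them. The vehicle libraries are shared by both hormones. Beside them, 3 of 38 S phase genes were lowered with corticosterone: Tk1 (−0.15 ± 0.040), E2f1 (−0.14 ± 0.034) and Pole (−0.12 ± 0.032). With aldosterone 1 was, Rrm2 (−0.23 ± 0.054).

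In colon organoids no histone gene passed in either line. Those labelled GRKO gave 0 of 68 in limma, 10 with an unadjusted p under 0.05, a median of −0.10 and 62 negative, against 1.12% of all genes raised and 0.195% lowered. The authors' deposited table called 2, Hist4h4 and Hist1h4a, as lowered, against 1.82% and 0.519% of all genes. Hist4h4 had 9.27, 9.41, 9.37, 9.44 and 9.30 with aldosterone and 9.39, 9.59, 9.70, 9.59 and 9.56 with vehicle, so that 1 vehicle library lay among the aldosterone libraries (−0.21 ± 0.059, limma adjusted p = 0.136). No histone gene had all aldosterone libraries below or above all vehicle libraries, which held for 1.02% (below) and 2.01% (above) of all genes. That vehicle library among the others, numbered 1, was lowest in others too: Hist1h3e stood at 9.70 in it and 10.91 to 11.33 in the other vehicle libraries, with 10.58 to 10.82 with aldosterone. Without it, 29 of 68 were lowered, with a median of −0.18, and the share of all genes lowered in that fit is not given. Without vehicle library 4, Hist1h4a was lowered. Averaged over the 68, vehicle library 1 deviated by −0.28, the other vehicle libraries by 0.08 to 0.24, and the aldosterone libraries by −0.14 to 0.07. Its Rmrp (13.62, against 14.04 to 14.47 in the other vehicle libraries) and Rpph1 (15.44, against 15.72 to 15.81) were lowest too. Their part was not tested.

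In WT organoids, 0 of 68 passed in limma, 2 had an unadjusted p under 0.05, the authors' deposited table called 0 (5.03% raised and 3.12% lowered among all genes there), and the median was 0.03, against 4.23% of all genes raised and 2.36% lowered. Single libraries spread widely, and in 0 histone genes did all aldosterone libraries lie below or above all vehicle libraries, against 1.52% (below) and 3.29% (above) of all genes. Hist1h3e ranged from 9.72 to 11.50 with a median of 11.09 in 6 aldosterone libraries, and from 10.34 to 11.48 with a median of 10.60 in 6 vehicle libraries. All 12 H3 genes were positive, with a median of 0.14, and 12 of 13 H4 genes were negative, with a median of −0.16. Averaged over the 68, aldosterone library 4 was lowest of all libraries at −0.57 and vehicle library 1 highest at 0.36. Leaving out any 1 library gave 0 called. The gene of the stem-loop binding protein, Slbp, was lowered (−0.20 ± 0.056, limma adjusted p = 0.0391), with 9.87 to 10.05 and a median of 9.99 in aldosterone libraries and 10.05 to 10.32 and a median of 10.20 in vehicle libraries. Of 38 S phase genes 4 were lowered and 1 raised, and 37 were negative, while 52% of all genes were negative. The raised one was Rrm2 (0.79 ± 0.065), the 1 gene against the direction of the list, and the 4 lowered are not named here. Rmrp rose, with 13.89 to 15.13 in aldosterone and 13.34 to 14.26 in vehicle libraries (0.75 ± 0.198, limma adjusted p = 0.0255). The response of the GRKO organoids minus that of the WT organoids passed for 0 of 68 histone genes (limma, 1 with an unadjusted p under 0.05, median −0.12), against 0.712% of all genes raised and 1.87% lowered.

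**Figure D4:**
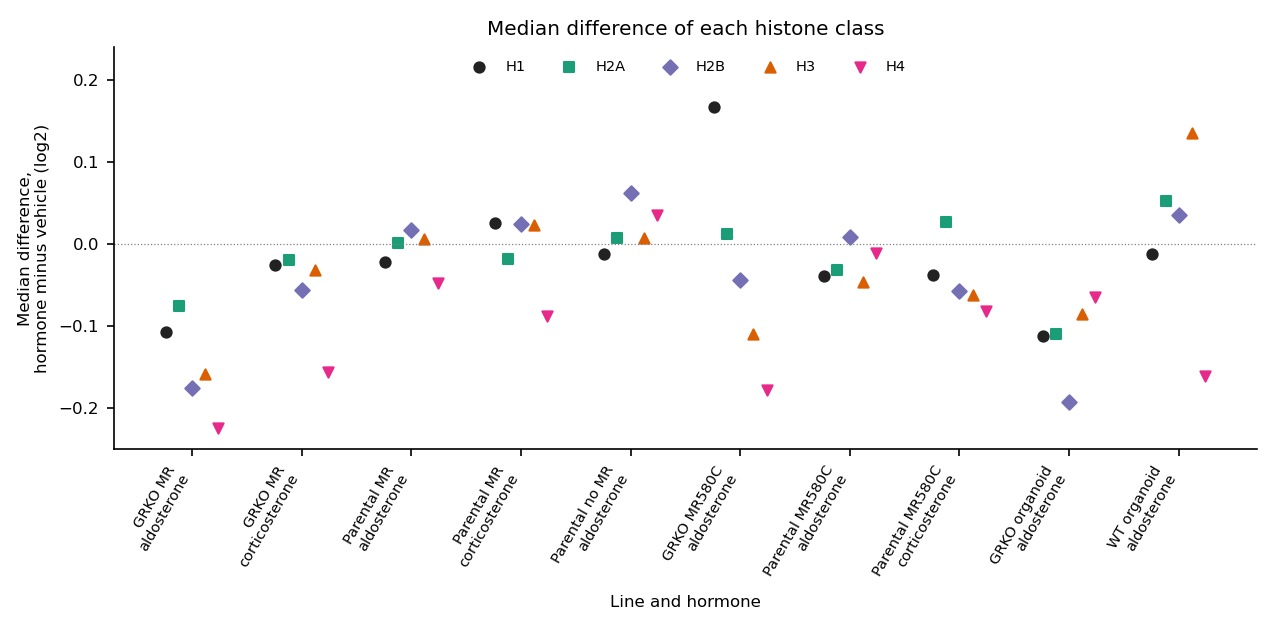
Median difference, hormone minus vehicle, in log2 units on the vertical axis, for each histone class in the 10 comparisons. On this scale the H4 median is the lowest of the 5 classes in 7 comparisons (4 by the authors' deposited fold changes), and it is above 0 in parental cells without added MR.

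How often H4 had the lowest class median differed between the log2 values and the authors' fold changes. On the deposited log2 scale H4 was lowest in 7 of the 10 comparisons, and by the log2 fold changes of the authors' deposited table, over all listed histone genes, in 4 of 10. On the log2 scale its median was −0.22 in GRKO MR cells with aldosterone and −0.16 with corticosterone, −0.05 and −0.09 in parental MR cells, 0.04 in cells without added MR, and −0.18 in GRKO MR580C cells. In parental MR580C cells it was −0.01 with aldosterone and −0.08 with corticosterone, and in organoids −0.06 for GRKO and −0.16 for WT. Comparisons with shared vehicle libraries are not independent of each other, and no test over a class was made. H2B was the lowest class in GRKO organoids, at −0.19, where all 19 genes were negative, and the highest in cells without added MR, at 0.06.

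Replicate libraries differed more in histone genes than in most genes. In each of the 19 groups of libraries, counted once per table, the median SD of the tested histone genes was above that of all genes tested, by 1.38 to 10.0 times. In GRKO MR cells it was 0.0394 with aldosterone, against 0.0174 over all genes, and 0.064 with vehicle, against 0.0173. The ratio was highest in parental MR cells with corticosterone, at 0.228 against 0.0228 (n = 2), and lowest in parental MR580C cells with corticosterone, at 0.0451 against 0.0326. In absolute terms WT organoids with aldosterone were widest, at 0.359 against 0.117. Levels of the histone genes differ from those of all genes, and the SD was not adjusted for level. Libraries moved in 1 direction for most of the genes: in GRKO MR vehicle library 2, 59 of 63 histone genes lay below their group mean, and in aldosterone library 3 of the same cells 61 of 63 lay above it.

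**Figure D5:**
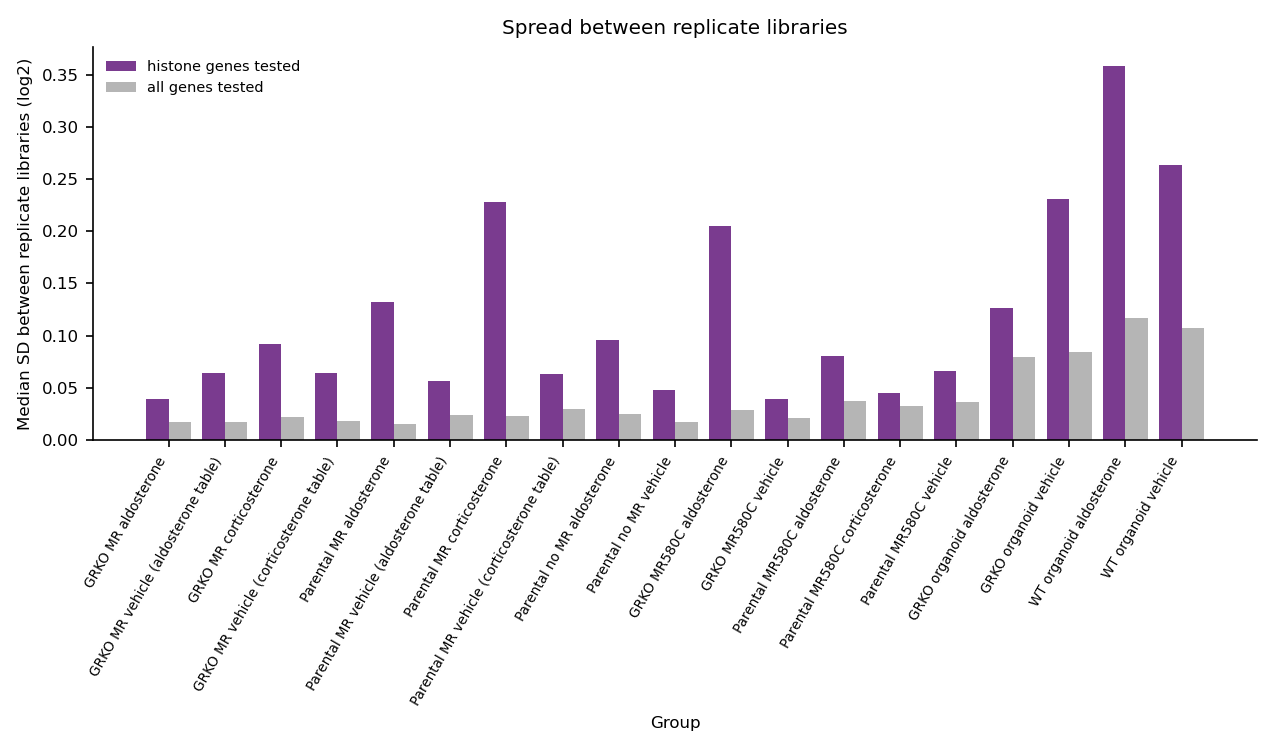
Median SD between replicate libraries, in log2 units on the vertical axis, for the tested histone genes and for all genes tested, in each group of each table. The histone bar is higher in all 19 groups, by 1.38 to 10.0 times, and the tables of organoids and parental MR580C cells use another log scale than the rest.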

How the data were processed

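Total RNA libraries (TruSeq Stranded, per the labels' protocols) give 10 tables deposited by the authors. Per the submitters' processing notes, STAR 2.7.0f, HOMER 4.10.4, cutadapt 1.18, bcl2fastq 2.20, Bowtie2 2.3.4.1, Trimmomatic and deepTools were used with mm10, with no roles given. Exon reads were counted with HOMER with condensed genes, per the file headers; no header or label names the strand setting or the annotation release, so reads of near-identical histone copies may be split between rows. Library columns hold deposited log2 values: a variance-stabilizing transformation in 3 tables, per the file headers, and in 7 a log2 scale taken from its values to be the regularized log. The authors' own log2 fold changes, p-values and adjusted p-values stand beside them in the deposited tables, with no test named. No counts can be recovered from these logs, so count models and counting intervals were not used.

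Each comparison was fitted within its table with limma 3.58.1 (R 4.3.3) with trend, 2-sided, with Benjamini-Hochberg adjustment over all genes tested and a threshold of 0.05. Genes had to vary by more than 1e-06 and be at 3.32 (log2; 10 on a linear scale) or above in a number of libraries no smaller than that of the smaller group, which removes nothing in the 3 variance-stabilized tables. The fit of parental MR580C cells held both hormones and vehicle. Differences of responses were limma interactions over 2 tables with 1 intercept per line, where tables were scaled separately. The fit was tested on simulated data. In 4 tables that hold older symbols, 101 symbols of any gene, none of them among the 68, were matched to newer ones by the files' alias lists. Genes named are, per comparison, up to 10 called histone genes by size of difference. The gene with the highest mean of each class in GRKO MR cells with aldosterone is named too. Genes of other lists are mostly named where they passed, and others are given by counts. The histone genes and all lists (RNAs without poly(A), replacement histones, histone RNA processing, S phase, cell type markers) were chosen with earlier results of these data known. Alternatives were no filter, limma without trend, libraries centred on their median, the replicate number as a block, leaving out each library, and the authors' adjusted p; leaving out both parental MR libraries numbered 3 was added after seeing the data. The labels pair no samples by these numbers. A check asked whether each same-numbered pair, of 3 or more, deviated together at a correlation over 0.1, and no comparison met it. Parental MR and GRKO MR580C cells have only 2 such pairs per comparison, so the check could not decide there. The 14 chromatin samples and 1 corticosterone sample of parental MR cells with no column (replicate 2) were not analysed here. Columns of the GRKO organoids are headed GRKD.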

Additional observations from a re-analysis of the deposited data

Results flagged for a closer look

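In organoids, where groups hold 5 or 6 libraries, 14 of 68 checks for a library far from the rest (Dixon's ratio of gap to range) passed its critical value; chance flags about 1 in 20, and genes of 1 library are not independent. In GRKO organoids, 5 of them fell on vehicle library 1, which was lowest in Hist1h2ab (9.45, against 10.25 to 10.37 in the others, ratio 0.864), Hist1h3g (9.65, ratio 0.788), Hist1h3e (9.70, ratio 0.741), Hist1h2bm (8.86, ratio 0.712) and Rpph1 (15.44, ratio 0.745). Aldosterone library 4 of the same line was highest in Hist1h3e (10.82, against 10.58 to 10.63, ratio 0.784).

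In WT organoids, aldosterone library 3 was highest in Rn45s (22.78, against 21.69 to 21.78, ratio 0.918) and Rpph1 (17.07, ratio 0.675), and aldosterone library 4 was lowest in Hist1h4j (9.76, ratio 0.668). Vehicle library 3 was highest in Hist1h4k (12.07, ratio 0.755) and Hist1h4h (13.17, ratio 0.629) and lowest in Hist4h4 (9.17, ratio 0.698), so it stood at opposite ends in H4 genes. Vehicle library 1 was highest in Hist1h3e (11.48, ratio 0.731) and Hist1h2bm (10.15, ratio 0.695).

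The response of Rmrp, an RNA without a poly(A) tail, to aldosterone differed between the organoid lines, by −1.13 ± 0.268 (SE, GRKO minus WT, limma interaction adjusted p = 0.0149). Of the 68 histone genes, 0 differed in response by the same test.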

How the results depend on the processing

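Over 14 comparisons and 193 alternatives, 148 counts of called histone genes stayed within 1.5 times of the reported count, 45 did not, and no single named gene changed sign in 141 refits, of which 42 no longer passed. Those named genes were picked because they were called in the reported fits, and the refits share most libraries with them. A change of sign was therefore unlikely from the start. In GRKO MR cells with aldosterone the count of 41 fell to 1 without trend, and leaving out 1 library gave 19 to 49. With the authors' deposited adjusted p-values the count was 1 with aldosterone in parental MR cells, 1 in cells without added MR, 11 in GRKO MR580C cells, 8 with corticosterone in parental MR580C cells and 2 in GRKO organoids. For GRKO MR580C cells those p-values may treat 1 library as 2. Without trend GRKO MR580C cells gave 0. Centring libraries gave 1 for GRKO MR cells minus cells without added MR. Without both libraries numbered 3, parental MR cells gave 15 with aldosterone and 35 with corticosterone, and the difference of corticosterone responses 2.

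Leaving out 1 library gave 0 to 1 with corticosterone in GRKO MR cells, 0 to 1 with aldosterone and 0 to 7 with corticosterone in parental MR cells, 0 to 1 in cells without added MR and 0 to 53 in GRKO MR580C cells. It gave 0 to 2 with aldosterone and 0 to 13 with corticosterone in parental MR580C cells, and 0 to 29 in GRKO organoids. For differences of responses it gave 0 to 9 for GRKO MR minus parental MR cells with aldosterone, 0 to 2 with corticosterone and 0 to 4 against cells without added MR. Where 1 library was left in a group, it was assumed to vary like the others, and such counts rest on that. Counts of refits stand here without the share of all genes called in the same refit. Causes were not tested beyond the smaller number of libraries.

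By the labels, the samples share only a replicate number, and where there were 2 pairs the check of pairing could not decide. With it as a replicate block, the count was 1 with corticosterone in GRKO MR cells, 5 with aldosterone and 16 with corticosterone in parental MR cells, 0 with corticosterone in parental MR580C cells, 1 in WT organoids and 23 for GRKO MR minus parental MR cells with aldosterone. Other counts under the block stayed within 1.5 times. Same-numbered correlations of deviations ran from −0.153 to 0.165 in GRKO MR cells with aldosterone. Over 2 pairs each in parental MR cells, they ran from 0.699 to 0.75 with aldosterone and from 0.675 to 0.722 with corticosterone. Other pairs there ran from −0.75 to 0.533 and from −0.722 to 0.375. With 2 hormone libraries the deviations mirror each other, so the correlations of the 2 pairs are not independent. Depth per gene is unknown, so differences of weakly expressed histone genes could not be weighed by their counts.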
